A study of Homo sapiens with 18 samples.

Results

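The 10 genes described here encode matrix metalloproteinases (MMPs): the collagenases MMP1 and MMP13, the stromelysins MMP3 and MMP10, the gelatinases MMP2 and MMP9, the matrilysin MMP7, the macrophage elastase MMP12, the membrane-bound MMP14 and the epilysin MMP28. They were taken by symbol from a count table of 19901 genes, each symbol matched 1 row, and all 10 were among the 15475 genes with enough reads to be tested. The question of the study was how head and neck squamous cell carcinoma (HNSCC) cells change when the receptor tyrosine kinase Met is stimulated by its ligand, the hepatocyte growth factor (HGF). mRNA of the 3 established human HNSCC lines Detroit 562, FaDu and SCC-9 was sequenced. Each line had 3 libraries from untreated control cells and 3 from cells that had received 50 ng/mL HGF for 16 h. No genetic modification is given for any line. The time is that of the sample records, while the series record gives 48 h. FaDu came from a primary tumor of the hypopharynx, SCC-9 from one of the tongue and Detroit 562 from a metastatic site of a pharyngeal tumor. SCC-9 cells were grown in a medium of their own with 400 ng/mL hydrocortisone, so the line and the medium cannot be told apart in any comparison between SCC-9 and the other lines.

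MMPs are zinc-dependent endopeptidases that cleave collagens, gelatin, proteoglycans and many proteins of the cell surface. Most are secreted as inactive proenzymes, in which a cysteine of the propeptide blocks the zinc, and they are activated when the propeptide is removed by plasmin, furin or other MMPs. The tissue inhibitors of metalloproteinases (TIMPs) bind the active enzymes. In squamous cell carcinoma, MMPs are known for the remodelling of the matrix around invading tumor cells, and HGF, also called scatter factor, is known for the dispersal of epithelial cells. The mRNA concentration says nothing of secretion or activation, which were not analysed here.

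Total counts ranged from 35304770 to 44003970 per library. Levels are given as CPM, the counts relative to library size after TMM normalization, or as CPM per kilobase of exon where genes are compared with each other. A floor of 3 counts corresponds to 0.0696 to 0.0913 CPM in these libraries. A gene was called upregulated or downregulated at an adjusted p below 0.1 (quasi-likelihood test of edgeR, adjusted by Benjamini-Hochberg over 15475 genes) and a log2 fold change of 0.4 or more in either direction. Control and HGF libraries of the same replicate number deviated together from their group means, so the numbers pair the libraries, and the call with the replicate number as a block is given wherever it differs. Replicate 3 of Detroit 562 stood apart: in the control and in the HGF library it had the lowest CPM of the 3 replicates for 7 of the 10 genes and the highest for MMP1. In FaDu replicate 3 was the lowest in both for 6 genes and the highest for MMP9. In SCC-9 it was the lowest in both for 3 genes and the highest for 2. The share of all genes with such an order was not computed. The 7 epithelial marker genes summed to between 3440 and 12800 CPM in every library. The 7 macrophage and leukocyte marker genes summed to between 20.8 and 67.2 CPM. Most of this was CD68, with means from 23.8 CPM in untreated FaDu to 57.6 CPM in HGF-treated SCC-9. CD14 had means of 8.89 CPM in untreated SCC-9 and 4.96 CPM in untreated FaDu, and CSF1R 1.58 CPM in untreated SCC-9. The mean of ITGAM was at most 0.812 CPM. PTPRC had at most 3 counts in any library, AIF1 at most 2 and LYZ at most 5. The 4 endothelial marker genes summed to at most 8.34 CPM. Of the 7 fibroblast marker genes, COL1A1 was present in each line, with means from 3.77 CPM in HGF-treated FaDu to 77.9 CPM in untreated SCC-9. COL1A2 had 23.9 CPM in untreated Detroit 562, 10.7 CPM in untreated SCC-9 and 0.0163 CPM in untreated FaDu. DCN had 1.64 CPM in untreated SCC-9 and at most 0.0158 CPM in any group of the other lines. COL3A1, LUM, PDGFRB and THY1 had means of at most 0.211 CPM in every group.

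HGF changed the MMP genes of Detroit 562 in both directions. The collagenase MMP1 was upregulated 7.52-fold, and the stromelysin MMP10 and the gelatinase MMP2 were upregulated 1.77-fold and 1.6-fold, while the collagenase MMP13 was downregulated 3.18-fold. These 4 of 10 genes were called where 17.9% of all tested genes were, with 6.16% called higher and 11.7% lower. There 5947 genes had an unadjusted p below 0.05. The control and HGF groups of these 4 genes did not overlap. The share of all genes without overlap in Detroit 562 or FaDu is not given here, so such separation is a description only. With the replicate block 7 of 10 were called, against 21.5% of all genes, of which 7.13% were higher and 14.4% lower: MMP3 was added to the upregulated genes, and MMP12 and MMP28 to the downregulated ones. In FaDu 0 of the 10 genes were called by edgeR without the block, where 0.0258% of all genes were and 1247 genes had an unadjusted p below 0.05, 2 of them MMP genes (MMP3 and MMP9). With the block 4 were called in FaDu (MMP1 and MMP9 higher, MMP7 and MMP13 lower), against 5.6% of all genes. In SCC-9 0 of the 10 were called without the block, where 0% of all genes were, 641 genes had an unadjusted p below 0.05 and none of these was 1 of the 10. MMP7 alone was called there with the block, as lower, against 1.97% of all genes. In these bulk samples a lower share of cells that make an mRNA and less of it per cell cannot be told apart. Marker sums moved with HGF in Detroit 562 too. The 7 epithelial genes summed to 5260 to 7510 CPM without and 3440 to 5050 with HGF. Most of this fall lay in KRT5 (means of 2100 and 1130 CPM) and KRT8 (2110 and 1240 CPM). CDH1, KRT14, KRT18 and TP63 also had lower means, while EPCAM had a higher one (426 and 493 CPM). The 7 fibroblast genes, almost all COL1A1 and COL1A2, summed to 29.8 to 54.4 and 15 to 27.6 CPM. The 7 leukocyte genes, mostly CD68, summed to 20.8 to 40.8 and 37.7 to 59 CPM. The 4 endothelial genes summed to at most 2.9 CPM without and to 0.487 to 1.06 CPM with HGF. Of these sums only the leukocyte one overlapped between the groups. In FaDu the leukocyte sum was 22.9 to 34.8 CPM without and 35.1 to 40.4 CPM with HGF, groups that did not overlap. This rise lay in CD68 (means of 23.8 and 33.3 CPM), while CD14 (4.96 and 4.23 CPM), CSF1R and ITGAM had lower means. PTPRC, AIF1 and LYZ, at or near the floor, had slightly higher ones. The part of these marker sums in the MMP results was not tested. DESeq2 called MMP1, MMP2 and MMP13 in Detroit 562 but not MMP10 (adjusted p = 0.157 with and 0.165 without its fold change prior). It called MMP9 in FaDu and 0 of the 10 in SCC-9. The share of all genes that DESeq2 called was not computed. Over the 10 genes the median log2 fold change in Detroit 562 was -0.11 (all tested genes, -0.01), that in FaDu -0.08 (-0.00) and that in SCC-9 -0.36 (0.00).

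**Figure D1:**
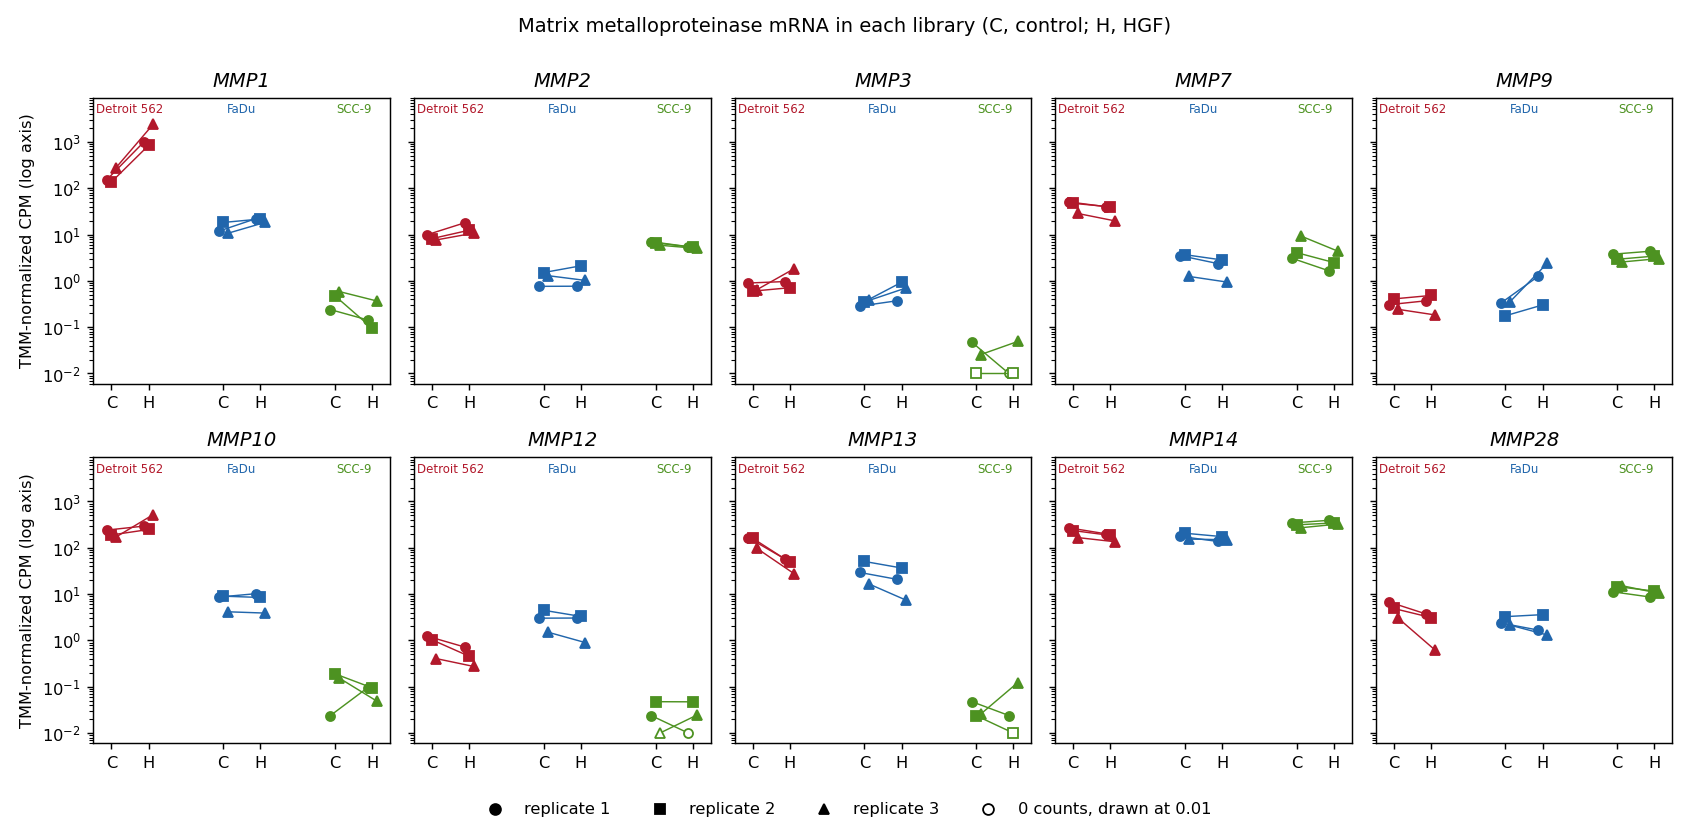
TMM-normalized CPM (log axis) of the 10 MMP genes in each library of untreated (C) and HGF-treated (H) cells, 1 panel per gene, with lines joining the libraries of 1 replicate number and open symbols for 0 counts. MMP1 rose in every Detroit 562 pair and MMP13 fell in each, and in SCC-9 the genes MMP3, MMP10, MMP12 and MMP13 stayed at 8 counts or fewer.

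**Figure D2:**
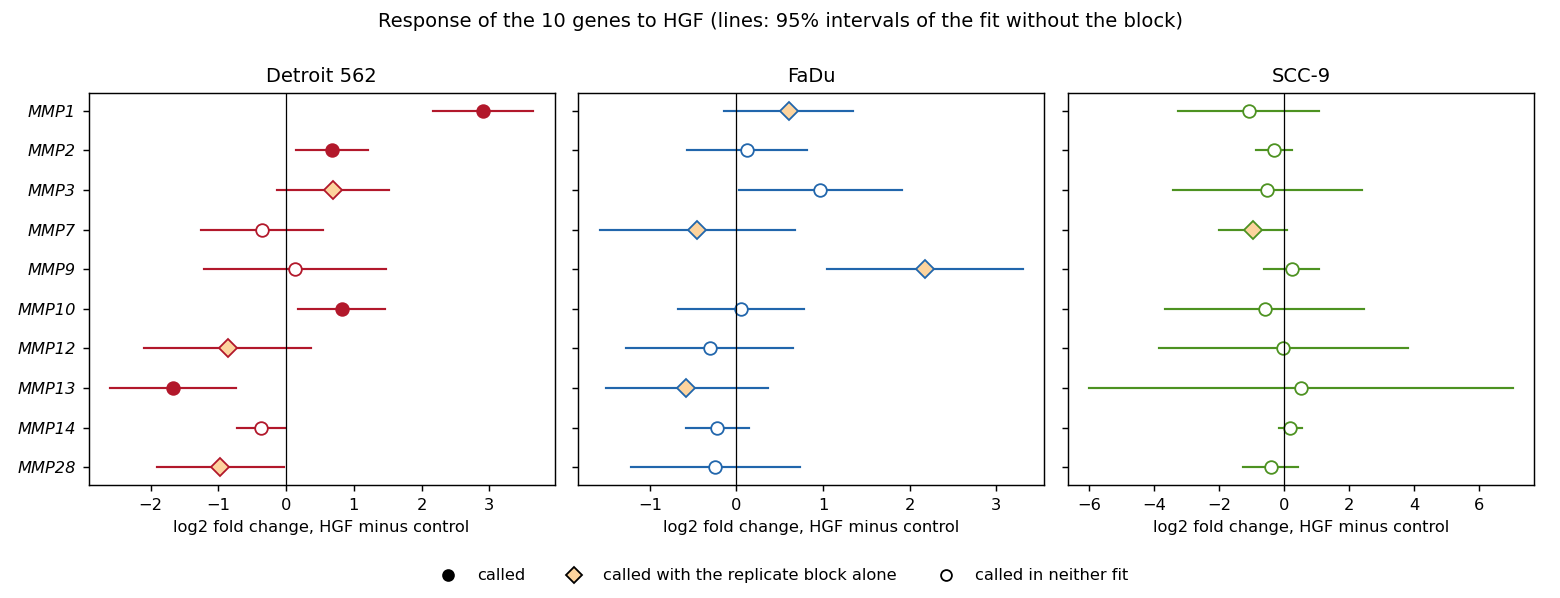
Log2 fold change of each MMP gene, HGF minus control, with its 95% interval in the fit without the replicate block. The x axes differ between the lines. Filled circles mark the 4 genes called in Detroit 562, diamonds the genes called with the block alone and open circles the genes called in neither fit.

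MMP1, the interstitial collagenase, which cleaves fibrillar collagen, gave the largest change among the 10 genes. In Detroit 562 its counts in replicates 1, 2 and 3 were 6486, 5020 and 10201 in control cells and 40658, 29662 and 78569 in HGF-treated cells, or 153, 136 and 275 CPM against 1010, 842 and 2390 CPM. The lowest HGF library lay above the highest control library, and replicate 3 was the highest in both groups. HGF raised MMP1 by 2.91 on the log2 scale (SE 0.352, adjusted p = 0.000167), and those of the 3 pairs were 2.72, 2.63 and 3.12. With each library left out in turn, and without replicate 3, it stayed between 2.30 and 3.29 and was called each time. In FaDu MMP1 had 11.8, 18.2 and 10.6 CPM in control cells and 22, 21.6 and 18.2 CPM with HGF, groups that met at 18.2 CPM, and the log2 fold change of 0.61 (SE 0.352, adjusted p = 0.647) was called with the block alone (0.63, adjusted p = 0.00375). In SCC-9 the counts were 10, 20 and 23 in control and 6, 4 and 15 in HGF libraries, a log2 fold change of -1.09 with a 95% interval from -3.25 to 1.06.

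The HGF response of MMP1 was also compared between the lines. It was larger in Detroit 562 than in FaDu by 2.30 on the log2 scale (SE 0.486, adjusted p = 0.0893), the only one of the 10 genes called in this comparison, where 0.239% of all genes were. The call was lost in 9 of the 12 fits that left out 1 library of these lines, with a lowest value of 1.69, and in the fit of these lines alone (adjusted p = 0.29), and it was held with the block (2.19, adjusted p = 6.69e-06). Against SCC-9 the difference was 4.00 (SE 1.075), with an adjusted p of 0.125 without and 0.000477 with the block. DESeq2 called it with adjusted p values of 8.28e-05 and 0.000123, with and without its fold change prior. Without the block 0 of the 10 genes were called by edgeR between Detroit 562 and SCC-9 (0.924% of all genes, 2378 genes with an unadjusted p below 0.05, 3 of them members) or between FaDu and SCC-9 (0% of all genes, 337 with an unadjusted p below 0.05, 1 of them a member). With the block 4 of 10 responses differed between Detroit 562 and FaDu (19.1% of all genes), 4 between Detroit 562 and SCC-9 (26.9%) and 2 between FaDu and SCC-9 (1.32%).

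MMP13, the collagenase 3, which cleaves fibrillar collagen as MMP1 does and type II collagen in particular, moved the other way in Detroit 562. Counts were 7034, 5945 and 3592 in control and 2288, 1726 and 900 in HGF-treated cells, or 166, 161 and 96.7 CPM against 56.6, 49 and 27.4 CPM. The groups did not overlap, and replicate 3 was the lowest in each of them. The fit gave a log2 fold change of -1.67 (SE 0.441, adjusted p = 0.0127), the pairs gave -1.55, -1.72 and -1.82, and the fits with libraries left out stayed between -1.89 and -1.42 with the call kept. In FaDu MMP13 had 29.3, 50.7 and 16.6 CPM in control and 20.8, 36.6 and 7.4 CPM with HGF. These groups overlapped, each pair was lower with HGF, and the log2 fold change of -0.58 (adjusted p = 0.716) was called with the block alone (-0.66, adjusted p = 0.0011). The response differed between Detroit 562 and FaDu by -1.09 on the log2 scale, which was not called without the block (adjusted p = 0.512) and was called with it (-1.03, adjusted p = 0.000568). SCC-9 libraries held 0 to 5 counts of MMP13, so a change was not detectable at this depth.

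The ratio of MMP1 to MMP13 counts therefore moved more than either gene. It was 0.922, 0.844 and 2.84 in the control libraries of Detroit 562 and 17.8, 17.2 and 87.3 in the HGF libraries. The mean log2 ratio was 0.38 ± 0.98 without and 4.90 ± 1.34 with HGF (SD, n = 3), a 22.9-fold change of the ratio. MMP1 rose and MMP13 fell with no overlap of the groups, so the ratio had to separate too and is no further result. Its two-sided exact permutation test (p = 0.1, the smallest that 3 libraries against 3 can give) therefore adds no support. In FaDu the ratios were 0.404, 0.359 and 0.639 without and 1.06, 0.592 and 2.46 with HGF. Each pair was higher with HGF but the groups overlapped, and the 2.55-fold change gave p = 0.2 in the exact permutation test. In both lines replicate 3 had the highest ratio of its group.

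**Figure D3:**
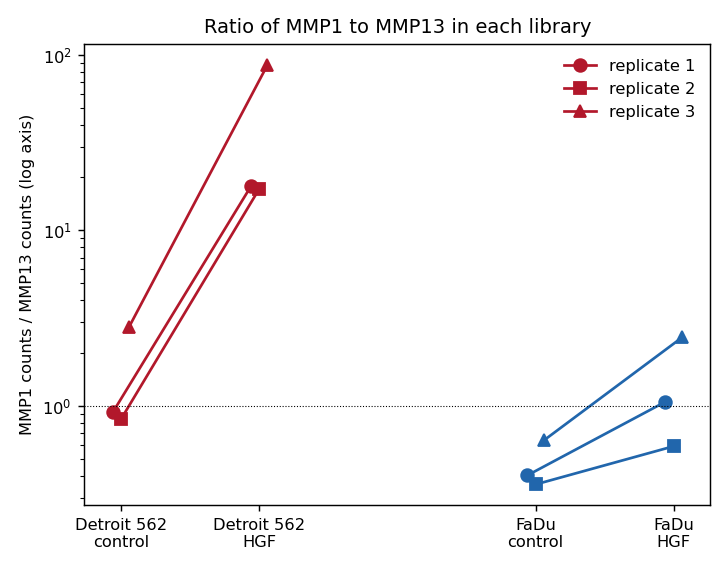
MMP1 counts divided by MMP13 counts (log axis) in each library of Detroit 562 and FaDu, with lines joining libraries of the same replicate number and the dotted line at a ratio of 1. In Detroit 562 the HGF libraries lie from 17.2 to 87.3, all above the control libraries, which lie from 0.844 to 2.84.

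The stromelysins MMP3 and MMP10 cleave proteoglycans, laminin and fibronectin and can activate procollagenases. MMP10 counts in Detroit 562 were 10207, 6975 and 6305 in control and 11887, 8730 and 17041 in HGF-treated cells. These were 241, 189 and 170 CPM against 294, 248 and 518 CPM, so the groups did not overlap, but the pairs gave log2 ratios of 0.29, 0.39 and 1.61. The fitted log2 fold change of 0.82 (SE 0.304, adjusted p = 0.057) rested on replicate 3: without the HGF library 3 it was 0.44 (adjusted p = 0.319), and without both libraries of replicate 3 it was 0.34, below the minimum fold change with and without the block. Leaving out control library 2 or 3 also ended the call (adjusted p = 0.153 and 0.13), and DESeq2 did not call it (adjusted p = 0.157 with and 0.165 without its prior). MMP3 was low in the same libraries, with 38, 22 and 24 counts in untreated cells and 39, 25 and 60 after HGF. Its pairs gave 0.11, 0.25 and 1.50, and the log2 fold change of 0.69 (adjusted p = 0.21) was called with the block alone (0.65, adjusted p = 0.0995) and not without replicate 3. MMP3 and MMP10 are close paralogs, and the authors name no filter on reads that align to several places. Reads of MMP10 among the few MMP3 counts therefore cannot be told apart from MMP3 reads.

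In FaDu MMP10 had 8.62, 9.02 and 4.15 CPM without and 10.2, 8.45 and 3.89 CPM with HGF, and the log2 fold change of 0.05 had a 95% interval from -0.68 to 0.78. The FaDu counts of MMP3 were 12, 14 and 16 without and 16, 37 and 29 with HGF. The groups met at 16 counts but overlapped in CPM, each pair was higher with HGF, and the log2 fold change of 0.97 was not called (adjusted p = 0.609, with the block 0.119). In SCC-9 neither stromelysin exceeded 8 counts in a library.

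MMP7 and MMP10 both lie on chromosome 11, and their promoters are shown because both hold an AP-1 element, the DNA sequence bound by Fos and Jun proteins, at the same distance from the start. RefSeq's table of promoters, which covers 250 bases before to 50 bases after the start, held 3 of the 10 genes (MMP7, MMP10 and MMP14, GRCh38.p14). Capitals mark the matches described after the sequences, which are written 5′ to 3′ on the strand of the gene.
MMP7, chr11:102530698-102530997, minus strand: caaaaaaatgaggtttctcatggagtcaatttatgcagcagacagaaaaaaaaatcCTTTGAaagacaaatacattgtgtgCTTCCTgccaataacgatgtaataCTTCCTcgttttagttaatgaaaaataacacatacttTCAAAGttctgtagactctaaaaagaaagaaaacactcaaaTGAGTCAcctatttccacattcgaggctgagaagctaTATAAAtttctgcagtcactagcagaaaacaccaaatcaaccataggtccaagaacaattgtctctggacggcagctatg
MMP10, chr11:102780579-102780878, minus strand: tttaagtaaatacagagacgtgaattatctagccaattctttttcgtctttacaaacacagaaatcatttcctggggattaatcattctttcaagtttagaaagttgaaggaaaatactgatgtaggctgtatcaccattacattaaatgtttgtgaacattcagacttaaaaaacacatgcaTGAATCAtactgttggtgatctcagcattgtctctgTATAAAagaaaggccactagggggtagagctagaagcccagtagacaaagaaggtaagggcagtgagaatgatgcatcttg
The AP-1 element was searched as TGANTCA, the PEA3 element of ETS factors as AGGAAG, the TATA box as TATAAA and the TCF element as CTTTGA, each on both strands. MMP7 held TGAGTCA and MMP10 TGAATCA, with the first base 67 bases before the start in each. The TATA box began 30 bases before the start of MMP7 and 31 before that of MMP10. MMP7 also held 2 PEA3 matches on the opposite strand, at 169 and 145 bases before the start, and TCF matches at 194 and, on the opposite strand, 108 bases before it. The MMP14 window held 0 matches of these 4 motifs. Of 35116 promoters of this length, 7.71% held the AP-1 letters, 33.6% the PEA3 letters, 11.5% the TATA box and 12.9% the TCF letters. A match of letters is not evidence of binding.

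MMP7, the matrilysin, a small MMP made by epithelial cells, was lower with HGF in each pair of each line without a call in the fit without the block. In Detroit 562 it had 50.7, 47.1 and 28.5 CPM in control and 39.8, 39.6 and 19.7 CPM with HGF. The groups overlapped because replicate 3 was low in both. HGF minus control was -0.35 on the log2 scale (adjusted p = 0.579), and with the block it was -0.37 with an adjusted p of 0.000493, smaller than the minimum fold change. FaDu gave -0.45 (adjusted p = 0.827) and was called with the block (-0.46, adjusted p = 0.0282). In SCC-9, where replicate 3 was the highest, the levels were 3.06, 4.06 and 9.23 CPM without and 1.63, 2.48 and 4.32 CPM with HGF. The fitted change there was -0.95 (adjusted p = 1), called with the block (-0.93, adjusted p = 0.000634).

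MMP12, the macrophage elastase, was lower with HGF in each Detroit 562 pair, with 52, 38 and 15 counts in untreated cells and 29, 16 and 9 after HGF. The groups overlapped, and the log2 fold change of -0.86 (adjusted p = 0.294) was called with the block (-0.87, adjusted p = 0.0178). In FaDu MMP12 had 3.02, 4.47 and 1.5 CPM without and 3.04, 3.29 and 0.895 CPM with HGF, a log2 fold change of -0.31 (adjusted p = 0.868, with the block 0.242). SCC-9 libraries held 0 to 2 counts.

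The gelatinases MMP2 and MMP9 cleave denatured collagen and the type IV collagen of basement membranes. MMP2 had 9.95, 8.15 and 7.65 CPM in control and 17.9, 12.4 and 10.7 CPM in HGF-treated Detroit 562, groups that did not overlap. On the log2 scale the change was 0.68 (SE 0.255, adjusted p = 0.0614) and the pairs gave 0.85, 0.61 and 0.49. The call was lost without control library 2 (adjusted p = 0.163), control library 3 (0.131) or HGF library 1 (0.43 on the log2 scale, adjusted p = 0.258). In FaDu MMP2 had 32 to 60 counts without and 33 to 84 with HGF, a log2 fold change of 0.12. In SCC-9 it had 7.01, 6.61 and 5.86 CPM without and 5.47, 5.29 and 5.01 CPM with HGF, groups that did not overlap where 17.4% of all genes did not, and the log2 fold change of -0.30 was not called (adjusted p = 1, with the block 0.169). The response of MMP2 differed between Detroit 562 and SCC-9 by 0.98 on the log2 scale (adjusted p = 0.237), called with the block (0.96, adjusted p = 0.000614).

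The counts of MMP9 in FaDu were 14, 7 and 15 in control and 54, 12 and 99 in HGF-treated cells. Replicate 2 was the lowest in both groups, its HGF library lay among the control libraries, and each pair was higher with HGF. The summed counts of 165 against 36 gave a ratio of 4.59 after normalization, with an exact interval from 3.19 to 6.79 that covers counting error only. The log2 fold change of 2.18 (SE 0.534) had an adjusted p of 0.372 by edgeR without the block, 0.000208 with it, and 0.0158 and 0.0171 by DESeq2 with and without its prior. Without the HGF library 2 edgeR called it (2.64, adjusted p = 0.0121). Without the HGF library 3, which holds 99 of the 165 counts, the value was 1.45 (adjusted p = 0.959). Over all fits without the block that left libraries out, the adjusted p ran from 0.0121 to 0.98. With the block, MMP9 was still called without replicate 3 (1.61, adjusted p = 0.0114). In Detroit 562, with 9 to 15 counts in control and 6 to 17 in HGF libraries, the log2 fold change of MMP9 was 0.13 with a 95% interval from -1.21 to 1.47. In SCC-9 it was 0.23 (2.55 to 3.76 CPM without and 3.02 to 4.35 CPM with HGF). The FaDu response differed from that of Detroit 562 and of SCC-9 with the block alone, the value for Detroit 562 against FaDu being -2.02 (adjusted p = 0.0116) and that for FaDu against SCC-9 1.92 (adjusted p = 0.0149), and neither was called without replicate 3.

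MMP14, a membrane-type MMP known to activate the proenzyme of MMP2 at the cell surface, was abundant in every library, from 135 to 392 CPM. In Detroit 562 it had 270, 235 and 166 CPM in control and 200, 185 and 135 CPM with HGF, which overlapped. Each pair was lower, by a fitted log2 fold change of -0.37 (adjusted p = 0.123, with the block 9.2e-05), which did not reach the minimum fold change. The value was called without control library 3 (-0.54, adjusted p = 0.0183) and without HGF library 1 (-0.48, adjusted p = 0.0753). In SCC-9 each pair was higher, from 344, 313 and 271 CPM to 392, 343 and 325 CPM, with a log2 fold change of 0.19 (adjusted p = 1). The HGF response was called as different between Detroit 562 and SCC-9 with the block (-0.55, adjusted p = 0.000296) and not without it (-0.56, adjusted p = 0.288). For FaDu the value was -0.22 (adjusted p = 0.722, with the block 0.0201), and its difference from SCC-9 of -0.41 was called with the block alone (adjusted p = 0.0246).

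MMP28, the epilysin, a secreted MMP of epithelia that a furin-type protease activates, had 286, 180 and 112 counts in untreated and 149, 110 and 20 in HGF-treated Detroit 562. These were 6.74, 4.89 and 3.02 CPM against 3.69, 3.12 and 0.609 CPM, overlapping groups with the lowest value in HGF library 3. The log2 fold change of -0.97 (adjusted p = 0.12) was called with the block (-1.02, adjusted p = 0.000778) and, without replicate 3, in both fits (-0.77, adjusted p = 0.0762 without and 0.000789 with the block). In FaDu and SCC-9 the log2 fold changes were -0.25 and -0.41 and were not called with or without the block. MMP28 overlaps the genes TAF15 and C17orf50 on the other strand, and the counting used strand.

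Because the genes differ in length, their share of the metalloproteinase mRNA was compared per kilobase of exon. The summed level of the 10 genes in Detroit 562 was 303 ± 29.4 CPM per kilobase in control and 789 ± 375 in HGF-treated cells (SD, n = 3). MMP1 made up 23.1% ± 10.8 of it without and 63% ± 7.45 with HGF, MMP10 37.3% ± 3.22 and 25.9% ± 1.53, MMP13 16.4% ± 3.88 and 2.43% ± 1.42, and MMP14 15.9% ± 2.71 and 5.65% ± 2.84. None of these groups overlapped, and each of the 5 comparisons gave p = 0.1 in the exact permutation test, the smallest possible. MMP10 thus had the highest mean level per kilobase in untreated Detroit 562 (114 ± 20.8 CPM per kilobase), followed by MMP1 (68.7 ± 27.6), MMP13 (49.9 ± 13.7) and MMP14 (48.4 ± 11.4), of which the last 3 did not differ beyond the spread of their libraries. In control library 3, however, MMP1 (100 CPM per kilobase) lay above MMP10 (96.5). With HGF the order was MMP1 (516 ± 311), MMP10 (201 ± 82.3), MMP14 (37.5 ± 7.38) and MMP13 (15.7 ± 5.35). The shares are parts of 1 sum, so a higher share of MMP1 lowers the others. Where a gene's reads fall in introns they were counted too, which the exon length does not cover.

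MMP14 made up most of the sum in the other lines. In FaDu its share was 62.2% ± 6.8 without and 59.4% ± 8.51 with HGF, and in SCC-9 it was 87.3% ± 3.29 and 91.3% ± 1.41. The sum was 63.3 ± 16 and 56.7 ± 11 CPM per kilobase in FaDu (exact permutation p = 0.6) and 76.5 ± 6.23 and 83.7 ± 6.97 in SCC-9 (exact permutation p = 0.3). In FaDu the share of MMP13 was 17.1% ± 5.13 without and 12.6% ± 6.66 with HGF. That of MMP1 was 7.79% ± 0.725 without and 13.5% ± 1.69 with HGF, groups that did not overlap (exact permutation p = 0.1). MMP13 thus came after MMP14 in control, and with HGF the shares of MMP1 and MMP13 lay within each other's spread. In SCC-9 MMP28 came next with 5.65% ± 1.29 and 3.87% ± 0.799.

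**Figure D4:**
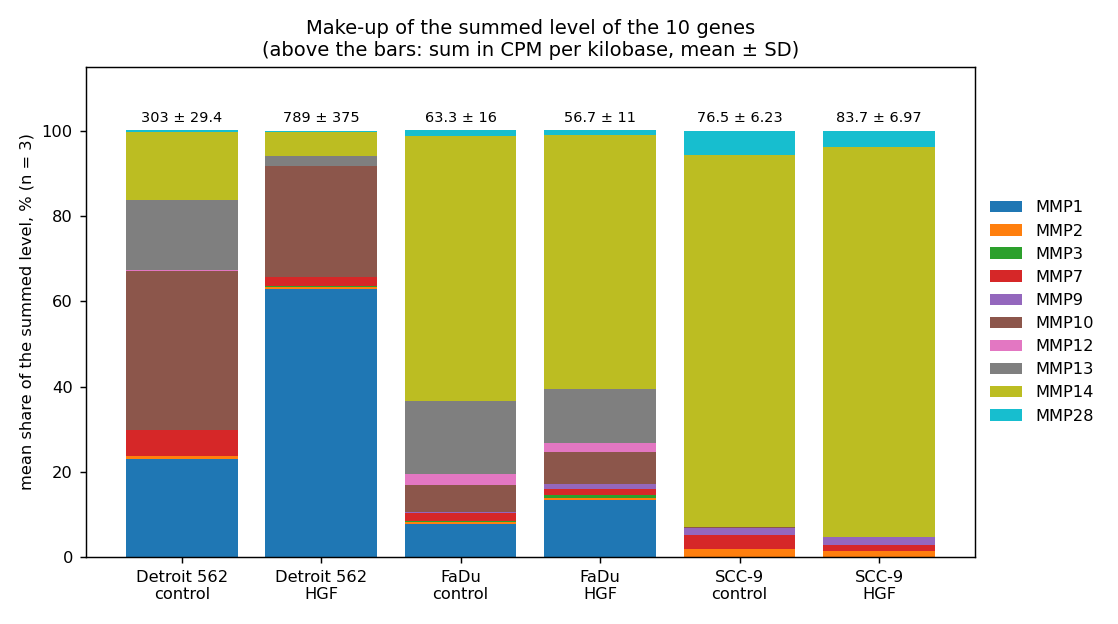
Mean share of each MMP gene in the summed level of the 10 genes (CPM per kilobase of exon, in %, n = 3 libraries per bar), with the sum as mean ± SD above each bar. MMP1 takes 63% of the bar of HGF-treated Detroit 562, and MMP14 takes most of every FaDu and SCC-9 bar.

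Untreated Detroit 562 and FaDu differed in 8 of the 10 genes (61% of all tested genes were called), 7 of them higher in Detroit 562 (31.2% of all genes). The largest were MMP10 with 200 ± 36.5 CPM against 7.26 ± 2.7 (log2 fold change 4.78, SE 0.364), MMP7 with 42.1 ± 11.9 against 2.8 ± 1.35 (3.91, SE 0.499) and MMP1 with 188 ± 75.6 against 13.6 ± 4.1 (3.79, SE 0.375). MMP2 (2.86), MMP13 (2.13), MMP3 (1.08) and MMP28 (0.92) were also higher. MMP12 was lower in Detroit 562, with 0.887 ± 0.43 CPM against 3 ± 1.48 in FaDu (-1.74, adjusted p = 0.00479). The calls of MMP3 and MMP28 depended on single libraries and that of MMP28 was not made by DESeq2 (adjusted p = 0.103). MMP9, with 37 against 36 counts in all, and MMP14 (0.32) were not called.

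SCC-9 nearly lacked 4 of the genes. Its 3 control libraries together held 4 counts of MMP13, 15 of MMP10, 3 of MMP3 and 3 of MMP12, at or near the floor. The 16571 counts of MMP13 in untreated Detroit 562 made it 4380 times as high per library size as in SCC-9, with an exact interval from 1710 to 16100 that covers counting error only. For MMP10 the ratio was 1660 (1000 to 2960), for MMP3 29.6 (9.79 to 147) and for MMP12 37 (12.3 to 182). For untreated FaDu against SCC-9 the ratios of MMP13, MMP10, MMP3 and MMP12 were 979 (382 to 3590), 59.3 (35.7 to 106), 13.8 (4.42 to 69.8) and 122 (41.3 to 592). MMP1 was also lower in SCC-9, with 0.434 ± 0.177 CPM. In all, 9 of the 10 genes were called between untreated Detroit 562 and SCC-9 (65.4% of all genes called), 6 of them higher in Detroit 562 (31.4% of all genes), and 10 of 10 between FaDu and SCC-9 (64.2% of all genes called), 5 of them higher in FaDu (30.7% of all genes).

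In SCC-9 MMP9, MMP14 and MMP28 were higher than in both other lines. MMP9 had 3.76, 2.92 and 2.55 CPM in untreated SCC-9, above every untreated Detroit 562 library (0.306, 0.407 and 0.242 CPM) and FaDu library (0.332, 0.176 and 0.352 CPM), and the log2 fold changes of these lines against SCC-9 were -3.26 and -3.40. MMP28 had 13.6 ± 2.13 CPM in SCC-9 (log2 fold change -1.47 and -2.39 for Detroit 562 and FaDu against it), and MMP14 309 ± 36.5 CPM (-0.47 and -0.79). The MMP14 call against Detroit 562 was lost without Detroit 562 control 3 (-0.29, adjusted p = 0.112), without SCC-9 control 1 and without replicate 3 (-0.38 in both, below the minimum fold change). MMP2 was lower in FaDu than in SCC-9 (-2.45) and, at 8.58 ± 1.21 against 6.49 ± 0.582 CPM, was not called between Detroit 562 and SCC-9. MMP7 was called as lower in FaDu than in SCC-9 (-0.96, adjusted p = 0.0897), but the difference was 0.01 without replicate 3, whose libraries were the lowest in FaDu and the highest in SCC-9.

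The genes MMP7, MMP10, MMP1, MMP3, MMP12 and MMP13 lie in this order on chromosome 11 of GRCh38, all on the minus strand, between positions 102520508 and 102955734, a span of 435227 bases in the band 11q22. The other members lie on chromosomes 14 (MMP14, 22836557 to 22849027), 16 (MMP2, 55389700 to 55506691), 17 (MMP28, 35756249 to 35795707) and 20 (MMP9, 46008908 to 46016561). For the 6 genes on chromosome 11, the neighbours YAP1, BIRC3, BIRC2, TMEM123, DCUN1D5 and DYNC2H1, of which YAP1 is a transcriptional coactivator and BIRC2 and BIRC3 are inhibitors of apoptosis, were examined as well. With HGF 0 of these 6 neighbours were called in Detroit 562, where 17.9% of all genes were called without and 21.5% with the block. For so few genes, 0 calls do not set the neighbours apart from these shares. Their log2 fold changes lay between -0.11 and 0.32, while MMP1 and MMP10 rose and MMP13 fell. In the other lines 0 were called without the block, against 0.0258% of all genes in FaDu and 0% in SCC-9. With it DYNC2H1 was higher in FaDu (0.47, adjusted p = 0.00408), where 5.6% of all genes were called. BIRC3 was lower in SCC-9 with the block (-0.59, adjusted p = 0.00229), where 1.97% were. Between untreated lines the neighbours did differ: 5 of 6 were higher in Detroit 562 than in FaDu, where 31.2% of all genes were, with log2 fold changes of 2.99 (YAP1), 3.00 (BIRC2), 2.95 (DCUN1D5), 2.70 (TMEM123) and 2.28 (BIRC3), and DYNC2H1, the farthest on that side, had -0.00. Against SCC-9, YAP1 (3.24), DCUN1D5 (3.27), TMEM123 (3.15), BIRC2 (2.19) and DYNC2H1 (0.74) were higher in Detroit 562 and BIRC3 was lower (-1.28), where 31.4% of all genes were higher. The MMP genes between them were not raised evenly, from -1.74 for MMP12 to 4.78 for MMP10 against FaDu. Gene copy number was not analysed here.

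**Figure D5:**
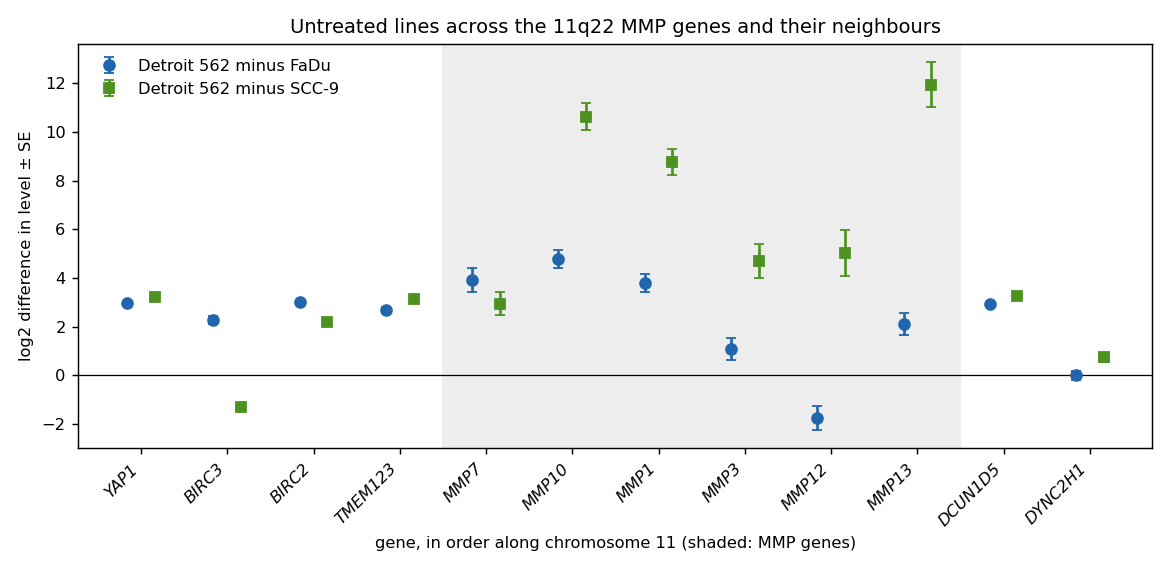
Log2 difference in level (± SE) between untreated Detroit 562 and untreated FaDu (circles) or SCC-9 (squares) for the 6 MMP genes of chromosome 11 (shaded) and their neighbours, in their order along the chromosome and not to distance. YAP1, BIRC2, TMEM123 and DCUN1D5 lie between 2.19 and 3.27, while the MMP genes range from -1.74 to 11.95. Differences of MMP3, MMP10, MMP12 and MMP13 from SCC-9, where they had 15 counts or fewer in all, depend on the prior count of the fit.

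Genes that regulate MMPs were taken from fixed lists, which were chosen with earlier results of these data known. Of the inhibitors, 6 of 7 were tested in HGF-treated Detroit 562, and 1 was called higher and 1 lower, beside 6.16% and 11.7% of all genes. TIMP2, which also takes part in the activation of MMP2 by MMP14, was downregulated (log2 fold change -0.68, adjusted p = 0.0301). TFPI2, an inhibitor of plasmin and MMPs, was upregulated (1.04, adjusted p = 0.0683), and TIMP1, TIMP3, TIMP4 and RECK were not called. TIMP2 had 230 ± 11.8 CPM without and 143 ± 15 CPM with HGF, and TFPI2 150 ± 49.3 and 308 ± 65.3 CPM. Of 10 genes of activation and docking, 3 were upregulated in Detroit 562, where 6.16% of all genes were called higher and 11.7% lower: PLAUR, the urokinase receptor (1.19, adjusted p = 0.0101), CD44, a hyaluronan receptor that can hold MMPs at the cell surface (0.69, adjusted p = 0.0474), and PLAU, the urokinase itself (0.42, adjusted p = 0.0677). PLAT, the tissue plasminogen activator, was downregulated (-0.68, adjusted p = 0.0996). FURIN, which activates MMP14 and MMP28, came to 0.32 on the log2 scale (adjusted p = 0.0143), below the minimum.

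Of 15 AP-1, ETS and RUNX genes, whose proteins bind elements found in promoters of MMP genes, 4 were upregulated and 2 downregulated by HGF in Detroit 562, and 6 and 5 with the block. Over all genes 6.16% were called higher and 11.7% lower without the block, and 7.13% and 14.4% with it. FOSL1, an AP-1 subunit, had 180 ± 99 CPM without and 527 ± 155 CPM with HGF (log2 fold change 1.55, adjusted p = 0.00475). The ETS genes ETV5 (1.34), ETV4 (0.76) and ETS1 (0.75) were upregulated, and the ETS gene ELF3 (-1.41) and the AP-1 gene JUND (-0.67) were downregulated. FOS varied over the control libraries (101 ± 140 CPM) and was not called without the block. The median log2 fold change was 0.23 for the inhibitors, 0.14 for activation and docking and 0.02 for the factors, beside -0.01 over all genes. In FaDu and SCC-9 0 genes of these 3 lists were called without the block, where 0.0258% and 0% of all genes were. With the block 2 inhibitors were higher in FaDu (TIMP1, 0.66, and TFPI2, 0.79), 2 activation genes were higher and 2 lower, and 6 factors were higher, among them FOSL1 (0.81), and 2 lower, where 5.6% of all genes were called. In SCC-9, where 1.97% of all genes were called with the block, TFPI2 was higher (2.29, adjusted p = 0.0862, from 0.0996 ± 0.102 to 0.515 ± 0.872 CPM), ETV1 (0.73), ETV5 (0.71) and ETV4 (0.51) were higher and ELF3 was lower (-0.79). Among 8 further MMP genes tested in Detroit 562, 1 was called higher and 1 lower, beside 6.16% and 11.7% of all genes. MMP17 was upregulated (0.56, adjusted p = 0.0085) and MMP15 downregulated (-0.51, adjusted p = 0.0503), both encoding membrane-type MMPs.

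The genes most like a member were sought by Pearson's r of log2 CPM over the 18 libraries, which fall into 3 lines, so r mainly describes differences between lines. MMP1 was most like FGFR1 (r = 0.990) and RABEP1 (0.989), MMP13 like PDGFD and KRT19 (0.995 each), MMP10 like SATB1 (0.993) and MPI (0.992), and MMP7 like DBNDD1 (0.988) and ZBTB42 (0.978). The lowest values belonged to MMP3 (ZNF106, 0.954, and HRASLS, 0.945), which had few counts. MMP9 was most like NTNG1 and MARCH4 (0.963 each), MMP14 like RAB43 (0.959) and PIGV (0.955), MMP28 like DNM1 (0.976) and UNK (0.968), MMP2 like EIF4EBP1 (0.979) and QDPR (0.974), and MMP12 like SMDT1 (0.977) and PHGDH (0.975).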

How the data were processed

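Stranded mRNA libraries of 18 samples were sequenced with single-end reads. The authors used Cutadapt for trimming, STAR 2.5.2b for alignment to GRCh38.p12 with GENCODE annotation, and bedtools to count reads over each gene's extent on its strand. The deposited values are raw counts, not normalized, with 35304770 to 44003970 per library. The authors name default alignment settings and no filter on reads aligning to several places, and do not state their handling further.

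Groups were taken from the sample titles. The counts of all libraries were fitted by edgeR 4.0.16 under R 4.3.3: filterByExpr on the 6 groups (15475 genes), TMM factors, 1 mean per line and treatment, and the quasi-likelihood test with Benjamini-Hochberg adjustment. Genes were called at an adjusted p below 0.1 and, except in comparisons of responses between lines, a log2 fold change of 0.4 or more in either direction. Because the samples of a group are repeats of 1 cell line, p-values measure the spread between these repeats. Exon lengths came from GENCODE 44. Intervals are 95% and those of count ratios, exact binomial, cover counting error only. Correlations used log2 of CPM with a prior of 0.5 CPM.

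The replicate numbers pair the libraries: over genes, deviations from the group means of control and HGF libraries with the same number correlated at 0.376 to 0.707, those with different numbers at -0.642 to 0.349. Genes are not independent replicates. The block was 1 factor within each line, and a factor shared by the lines for untreated lines. Other alternatives were DESeq2 1.42.0 with and without its fold change prior, RLE and upper-quartile factors, no filter, a filter of 50 counts in 3 libraries, the libraries of the lines compared alone, other thresholds (adjusted p below 0.05 and at least a log2 of 1, or no minimum), and each library left out. Leaving out replicate 3, with and without the block, was added after seeing the data. The fit was also run on simulated counts with 200 genes changed by a log2 of 1 in Detroit 562. Without the block 83% were recovered among 15475 genes, with 19 false calls among 185, and unchanged lines gave 0 calls. The changed response was recovered for 40.5% of the genes against FaDu and 47% against SCC-9. Every simulated gene had the same dispersion of 0.03 and no replicate effect, unlike these libraries, so the shares do not give the power here.

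The members, lists and tests were chosen with earlier results of these data known. All 10 members were named. Of the lists, genes called in a comparison and otherwise at most 4 with the smallest p were named, and for each member the 2 most like genes. FOS and FURIN were named outside this rule, after their values were seen, as were the single genes named from the cell type marker lists. 1 gene of the activation and docking list is not reported here and was left out of that list's counts and medians.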

Additional observations from a re-analysis of the deposited data

Results flagged for a closer look

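The HGF response of some MMP genes differed between lines by a test of the difference itself, within the same edgeR fit. Without the replicate block this held for MMP1 alone, with a response larger in Detroit 562 than in FaDu by 2.30 on the log2 scale (adjusted p = 0.0893). In that comparison 0.239% of all genes were called. The MMP1 call was lost in 9 of the fits that left out a single library and in the fit of these lines alone (adjusted p = 0.29). With the block, Detroit 562 and FaDu differed in MMP1 (2.19), MMP2 (0.56, adjusted p = 0.0942), MMP9 (-2.02) and MMP13 (-1.03). Detroit 562 and SCC-9 differed in MMP1 (3.93), MMP2 (0.96), MMP7 (0.56, adjusted p = 0.00752) and MMP14 (-0.55). FaDu and SCC-9 differed in MMP9 (1.92) and MMP14 (-0.41). With the block 19.1%, 26.9% and 1.32% of all tested genes were called in these 3 comparisons. Comparisons that share a line share its libraries. Groups of 3 libraries were too small for a test of outlying samples.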

How the results depend on the processing

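Of the 10 genes, 4 were called for HGF in Detroit 562, 7 with the replicate block, 2 (MMP1 and MMP13) at the stricter thresholds, and 2 to 5 with libraries left out. In FaDu 0 became 4 with the block, also without replicate 3, 1 with DESeq2 with and without its prior, and 0 to 1 with libraries left out. In SCC-9 0 became 1 with the block, also without replicate 3. For responses in Detroit 562 against FaDu, 1 became 4 with the block, 3 with the block without replicate 3, 0 with these lines alone or at those thresholds, and 0 to 1 with libraries left out. Against SCC-9, 0 became 4 with the block, also without replicate 3, 1 with either DESeq2 fit or these lines alone (MMP2), and 0 to 2 with libraries left out. For FaDu against SCC-9, 0 became 2 with the block and 1 with the block without replicate 3. Counts for untreated lines stayed within 1.5 times the 8, 9 and 10 called. The 8 to 10 calls between lines did not change with the block. The share of all genes called was computed only for the edgeR fits of all libraries, with and without the block. The causes were not tested.

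Of 1787 values of single genes under alternatives, 47 changed sign, and 45 of these were called in neither fit. The exceptions are MMP7 in untreated FaDu against SCC-9, at 0.01 without replicate 3, with and without the block, and -1.24 to 0.01 with libraries left out. With the block without replicate 3 the other values of changed sign were -1.38 for MMP13 with HGF in SCC-9, 0.05 for the MMP9 response in Detroit 562 against SCC-9, and 0.33 and 0.91 for the MMP12 and MMP13 responses in FaDu against SCC-9. With libraries left out, the ranges that crossed 0 were, for HGF in Detroit 562, -0.16 to 0.41 (MMP9), in FaDu, -0.41 to 0.40 (MMP2), -0.24 to 0.38 (MMP10), -0.63 to 0.09 (MMP12) and -0.80 to 0.03 (MMP28), and in SCC-9, -3.13 to 0.31 (MMP3), -0.85 to 0.81 (MMP12) and -1.38 to 1.09 (MMP13). For responses in Detroit 562 against FaDu they were -0.86 to 0.03 (MMP3), -0.25 to 0.46 (MMP7) and -0.32 to 0.01 (MMP14), and against SCC-9 -0.39 to 0.19 (MMP9). For FaDu against SCC-9 they were -0.11 to 0.70 (MMP2), -0.10 to 0.96 (MMP7), -1.11 to 0.55 (MMP12), -1.71 to 0.91 (MMP13) and -0.38 to 0.44 (MMP28), and for untreated Detroit 562 against FaDu -0.10 to 0.46 (MMP9). Depth limits MMP3, MMP10, MMP12 and MMP13 in SCC-9, with 0 to 8 counts per library.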

Other observations

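The inhibitors of MMPs had levels of their own in the 3 untreated lines. RECK, a membrane-anchored inhibitor, had 56.2 ± 3.75 CPM in SCC-9, 2.23 ± 0.403 in Detroit 562 and 2.16 ± 0.148 in FaDu (log2 fold change of Detroit 562 and FaDu against SCC-9 -4.65 and -4.70, edgeR adjusted p = 1.48e-12 and 1.54e-12). TIMP3 was highest in SCC-9 as well, with 92.6 ± 1.39 CPM against 24.1 ± 2.59 in Detroit 562 and 3.74 ± 0.352 in FaDu. TIMP2 was highest in Detroit 562 (230 ± 11.8 CPM), followed by SCC-9 (110 ± 12.3) and FaDu (5.46 ± 2.16). TFPI2 was near the floor in SCC-9 (0.0996 ± 0.102 CPM), beside 150 ± 49.3 CPM in Detroit 562 and 31.3 ± 5.89 CPM in FaDu. Among MMP genes outside the 10, MMP16, which encodes a membrane-type MMP, had 25.4 ± 1.98 CPM in Detroit 562 against 0.962 ± 0.174 in FaDu and 0.745 ± 0.0989 in SCC-9 (log2 fold change 4.72 and 5.09). Of 6 inhibitors tested, 5 were higher in Detroit 562 than in FaDu and 0 lower, where 31.2% of all tested genes were called higher.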
